A study of Danio rerio with 6 samples.

Results

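The genes described here are those of the insulin-like growth factor (IGF) axis in whole zebrafish embryos: 3 ligand genes (igf1, igf2a and igf2b), 2 receptor genes (igf1ra and igf1rb) and 5 binding protein genes (igfbp1a, igfbp1b, igfbp2a, igfbp3 and igfbp5b). They were chosen as the probe sets of the deposited value table whose single gene symbol in the platform annotation is one of these 10 names, which gave 13 of 15617 probe sets. The genes igfbp1a, igfbp3 and igf1rb each had 2 probe sets. All 13 probe sets passed the filter on low signals that left 11626 probe sets for testing. The second igf1rb probe set did so through its signal in ERbeta2 MO embryos. The list was selected on earlier results of these arrays, among them the igfbp1a signal, which was higher in ERbeta2 MO than in coMO embryos. For igfbp1a the values of the ERbeta2 MO and coMO embryos are therefore given as a description, with no test.

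Each array was hybridised with RNA of embryos collected at 72 hours post fertilization (hpf) after growth at 28 °C, from eggs pooled over several aquaria. ERbeta2 MO embryos had been injected, by the 4 cell stage, with 15 uM of a morpholino, an antisense oligomer that here blocks translation of the estrogen receptor ERbeta2. The coMO embryos had received a standard control morpholino at 15 uM, and the uninjected embryos served as a blank. There were 2 arrays per group, called biological replicates in the labels, and no strain or number of embryos per pool is given in the sources used here.

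IGFs are secreted peptides that promote growth and survival through a receptor tyrosine kinase, the IGF1 receptor, which signals through insulin receptor substrates to the PI3 kinase, AKT and MAP kinase cascades. In blood and tissue most IGF is held by IGF binding proteins, which prolong its life and can either restrain it or deliver it to the receptor. The liver is a major source of circulating IGF and of several binding proteins, and zebrafish carry duplicated copies of several of these genes. In fish and mammals the gene for binding protein 1 is known to respond to fasting, low oxygen and other stress, and in zebrafish embryos its product slows growth.

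Apart from igfbp1a, which is described without a test, the called differences lay in the binding protein gene igfbp2a and the receptor gene igf1rb, both between ERbeta2 MO and uninjected embryos. Those groups differ in the injection as well as in the block of ERbeta2, which cannot be told apart in that comparison. Against coMO neither igfbp2a nor igf1rb passed the test. Both ERbeta2 MO arrays had a higher igfbp1a signal than the other 4 arrays. On the first igfbp1a probe set their mean was 4.67 times that of coMO and 2.80 times that of uninjected embryos. On the second it was 3.66 and 2.39 times. The igfbp2a signal was lowest in ERbeta2 MO, intermediate in coMO and highest in uninjected embryos, and it fell 3.16-fold in ERbeta2 MO against uninjected embryos on the log2(signal + 32) scale. The receptor gene igf1rb rose in ERbeta2 MO against uninjected embryos on its first probe set, near the threshold (limma, adjusted p = 0.0440). That call was lost with a pseudocount of 1, no filter or only the 4 arrays compared (adjusted p = 0.0510, 0.0595 and 0.0711). The second igf1rb probe set was also called higher, but it passed the filter through its ERbeta2 MO signal, so its call is a description. The ligand genes igf1, igf2a and igf2b and the receptor gene igf1ra did not pass the test in any comparison.

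Signals are MAS5 values, an intensity on a linear scale that depends on each probe set's own sequences, so levels were not set against each other between probe sets. Differences are given as changes in log2(signal + 32), where those of low signals are understated. A probe set was called where limma's test of all 6 arrays in 1 model gave an adjusted p of 0.05 or less over the 11626 probe sets tested. Between ERbeta2 MO and coMO, 2.29% of all tested probe sets were called, and 2 of the 13 IGF axis probe sets were, both of igfbp1a, whose difference between these groups was known when the list was selected. Between ERbeta2 MO and uninjected embryos the share was 18.5% of all, and 5 of the 13 were called (both of igfbp1a, both of igf1rb and that of igfbp2a). The igfbp1a calls in both counts are a description, since its signals in ERbeta2 MO and coMO embryos took part in choosing the list. Without igfbp1a, the counts were 0 of 11 against coMO and 3 of 11 against uninjected embryos. The 3 were igfbp2a and the 2 probe sets of igf1rb, of which the second passed the filter through its ERbeta2 MO signal. The other members were also chosen with earlier results of these arrays known. These counts are therefore a description and no comparison of an unselected set with the shares. The shares of all tested probe sets by direction were 0.654% higher and 1.63% lower in ERbeta2 MO against coMO, and 8.31% higher and 10.2% lower against uninjected embryos. Between coMO and uninjected embryos limma called 0% of all and 0 of the 13. At an unadjusted p under 0.05 that comparison held 1456 probe sets in all and 2 of the 13, igfbp2a and, as a description, the first of igfbp1a.

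The groups of 2 arrays did not overlap for 10 of the 13 probe sets between ERbeta2 MO and coMO (48% of all tested), for 8 between ERbeta2 MO and uninjected embryos (63.7% of all) and for 10 between coMO and uninjected embryos (55.2% of all). The median change over the 13 was 0.07 for ERbeta2 MO minus coMO (−0.0055 over all tested), −0.04 for ERbeta2 MO minus uninjected (0.03 over all) and −0.09 for coMO minus uninjected (0.02 over all). These counts and medians include both igfbp1a probe sets, which were without overlap in all 3 comparisons and took part in choosing the list. They also include the second igf1rb probe set, which passed the filter through its ERbeta2 MO signal. They are therefore a description, as the counts of calls are. The 3 comparisons share arrays, so their values are given side by side and are not independent of each other.

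**Figure D1:**
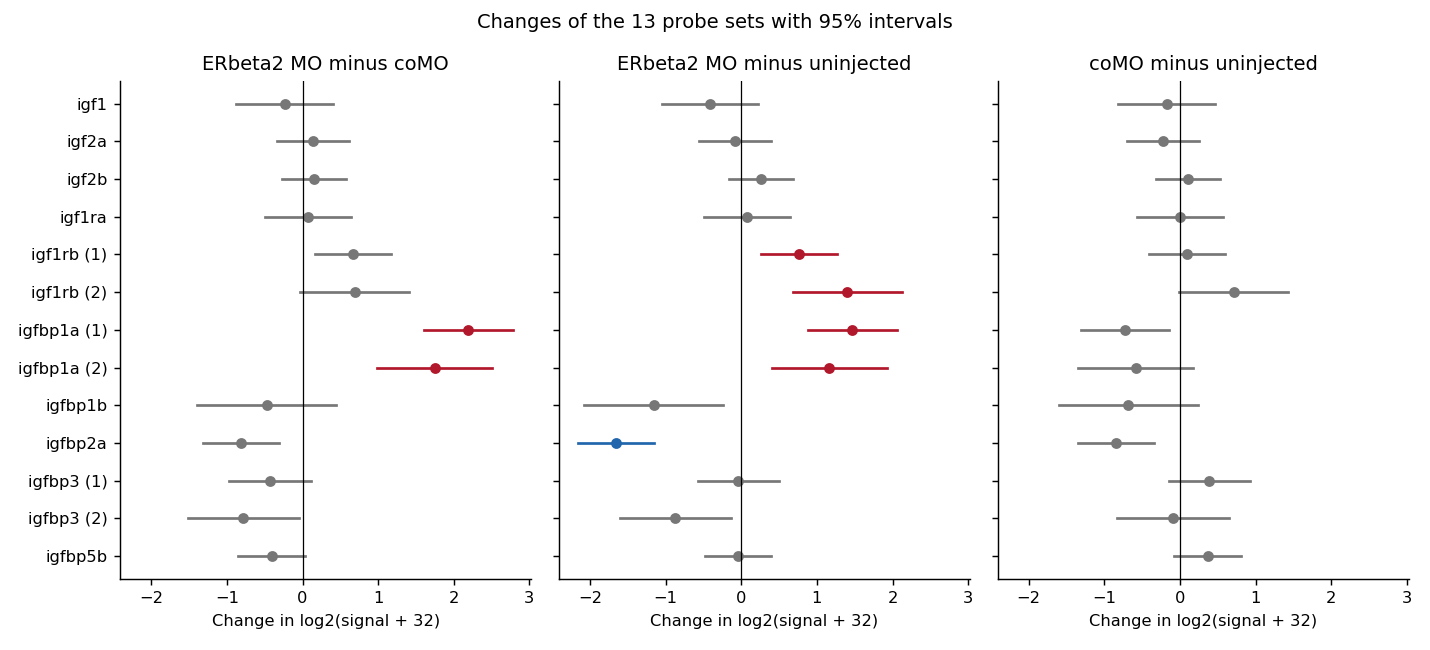
Change of each of the 13 probe sets in the 3 comparisons, in log2(signal + 32), with 95% intervals from the fit. Red marks probe sets called higher, blue those called lower, and gray those not called. For igfbp1a and the second igf1rb probe set the colour is a description, and (1) and (2) number the probe sets of a gene. The interval of igfbp2a for ERbeta2 MO minus uninjected runs from −2.16 to −1.16, and that of igf1ra spans 0 in all 3 panels.

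Measures over whole arrays also differed between the groups. A principal component with 62.0% of the variance placed ERbeta2 MO at −45.4 and −40.0, coMO at −4.84 and 17.5, and uninjected embryos at 40.7 and 32.1. The ratio of the GAPDH control probe sets at the 3′ and 5′ ends of the transcript, which tends to be raised by broken or incompletely copied RNA, was 2.76 and 2.01 in ERbeta2 MO embryos, 1.95 and 1.23 in coMO embryos and 1.32 and 1.24 in uninjected embryos. The same ratio for the acta1 control probe sets was 8.92 and 13.5 in ERbeta2 MO embryos and 21.8 and 10.8 in coMO embryos. It was 3.54 and 4.26 in uninjected embryos, so it was highest on coMO replicate 1 and lowest in uninjected embryos. With the log2 of the GAPDH ratio as a covariate, an alternative chosen after the data were seen, 0 of the 11626 probe sets were called in any comparison. Since the ratio differed between the groups, this fit cannot separate RNA quality from the group. The acta1 ratio was not used as a covariate. The probe sets of the ERbeta receptor genes esr2a and esr2b had signals between 2.32 and 94.9 over all arrays and fell below the filter. Since a translation blocker may leave mRNA levels as they are, the labels cannot be checked by them.

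Among the ligands, igf2b, which encodes one of the zebrafish IGF2 peptides, showed the narrowest range over the arrays. Its signal was 612 and 643 in ERbeta2 MO embryos, 578 and 546 in coMO embryos and 529 and 509 in uninjected embryos. The 3 groups did not overlap and stood in that order. The change was 0.15 (SE 0.186, adjusted p = 0.691) for ERbeta2 MO minus coMO and 0.26 (SE 0.186, adjusted p = 0.350) for ERbeta2 MO minus uninjected, with an interval of −0.167 to 0.685. For coMO minus uninjected it was 0.11 (adjusted p = 0.831), so no pair of groups passed the test.

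The other IGF2 gene, igf2a, had signals of 281 and 246 in ERbeta2 MO embryos, 230 and 243 in coMO embryos and 253 and 312 in uninjected embryos. Both ERbeta2 MO values lay above those of coMO, but the ERbeta2 MO and uninjected values overlapped. The changes were 0.14 (adjusted p = 0.753) for ERbeta2 MO minus coMO, −0.09 (adjusted p = 0.794) for ERbeta2 MO minus uninjected and −0.22 (adjusted p = 0.675) for coMO minus uninjected.

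The gene of the IGF1 peptide, igf1, was at a low signal of 56.1 and 110.7 in ERbeta2 MO embryos, 104.6 and 95.8 in coMO embryos and 105.5 and 130.1 in uninjected embryos. ERbeta2 MO replicate 1 was lower than the other 5 arrays, and replicate 2 lay above both coMO arrays. The change was −0.24 (interval −0.877 to 0.403, adjusted p = 0.675) for ERbeta2 MO minus coMO and −0.41 (adjusted p = 0.322) for ERbeta2 MO minus uninjected, and −0.18 (adjusted p = 0.816) for coMO minus uninjected. Without ERbeta2 MO replicate 1 the change against coMO was 0.11, so its direction rested on that array.

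**Figure D2:**
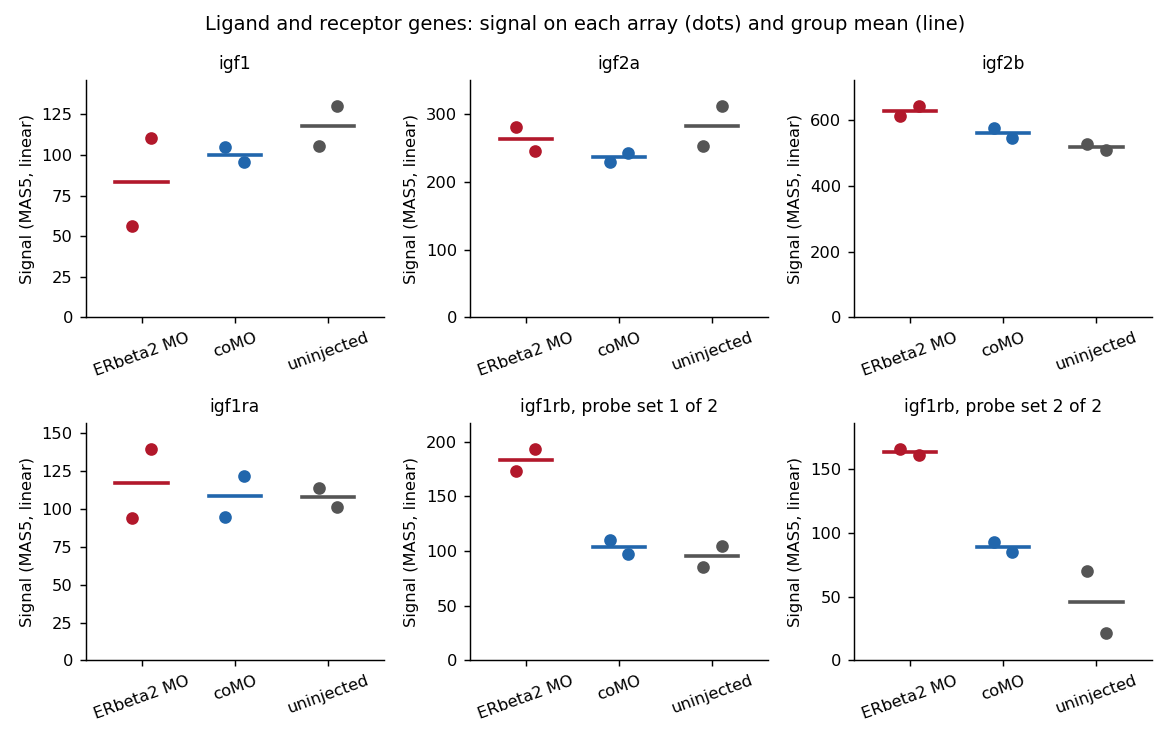
Signal (linear MAS5 intensity, vertical axis from 0) of the ligand and receptor probe sets on each array (dots) with the mean of each group of 2 (lines). Both igf1rb panels show the ERbeta2 MO dots above all others, at 174 and 193 on the first probe set and 165 and 161 on the second, while the igf1ra dots of the 3 groups overlap.

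The 2 receptor genes are duplicates of the gene for the IGF1 receptor. The probe set of igf1ra gave 94.1 and 139 in ERbeta2 MO embryos, 94.8 and 121 in coMO embryos and 114 and 101 in uninjected embryos. All 3 groups overlapped. The changes were 0.07 (interval −0.491 to 0.640, adjusted p = 0.893) for ERbeta2 MO minus coMO and 0.08 (interval −0.489 to 0.643, adjusted p = 0.852) for ERbeta2 MO minus uninjected, and 0.0022 (adjusted p = 0.998) for coMO minus uninjected.

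For igf1rb the first probe set gave signals of 174 and 193 in ERbeta2 MO embryos, 110 and 97.0 in coMO embryos and 85.8 and 104 in uninjected embryos. The second gave 165 and 161 in ERbeta2 MO embryos, 93.0 and 84.6 in coMO embryos and 69.7 and 21.4 in uninjected embryos. On both, the ERbeta2 MO arrays lay above the other 4. Between coMO and uninjected embryos the first probe set overlapped and the second did not. The second had means of 163 in ERbeta2 MO, 88.8 in coMO and 45.6 in uninjected embryos, beside a filter cut of 72.8. It passed the filter through the ERbeta2 MO arrays, where it is high, so its call is a description and no separate support.

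Against uninjected embryos igf1rb rose by 0.76 (log2; SE 0.218, adjusted p = 0.0440) on the first probe set and by 1.40 (SE 0.314, adjusted p = 0.0207) on the second. Against coMO the changes of 0.67 (SE 0.218, adjusted p = 0.151) and 0.69 (SE 0.314, adjusted p = 0.264) did not pass. The difference between coMO and uninjected embryos was 0.10 (adjusted p = 0.878) and 0.71 (adjusted p = 0.403). The authors' deposited tables gave the second probe set ratios of 3.62 for ERbeta2 MO over uninjected and 2.18 for coMO over uninjected embryos. The larger value of the second probe set came with the uninjected replicate 2 signal of 21.4. Without that array the second probe set had a change of 0.94 against uninjected embryos (adjusted p = 0.123). The first probe set lost its call without ERbeta2 MO replicate 2 (adjusted p = 0.0814), without coMO replicate 1 or 2 (adjusted p = 0.0726 and 0.0720) and without uninjected replicate 1 or 2 (adjusted p = 0.274 and 0.144). The second lost it without coMO replicate 1 (adjusted p = 0.0503) or uninjected replicate 1 (adjusted p = 0.0523).

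Among the binding proteins, igfbp1a encodes a copy of binding protein 1, which binds IGFs and withholds them from the receptor. Its first probe set had signals of 4581 and 3575 in ERbeta2 MO embryos, 1031 and 717 in coMO embryos and 1675 and 1239 in uninjected embryos. Its second had 3219 and 1598 in ERbeta2 MO embryos, 581 and 737 in coMO embryos and 1166 and 850 in uninjected embryos. On both probe sets the order was ERbeta2 MO, uninjected, coMO, and no groups overlapped. The 2 probe sets correlated at r = 0.928 over the 6 arrays, a description of arrays that share these groups.

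The change of igfbp1a for ERbeta2 MO minus coMO was 2.19 (SE 0.254) on the first probe set, a 4.57-fold difference, and 1.75 (SE 0.331) on the second. For ERbeta2 MO minus uninjected it was 1.47 (SE 0.254) and 1.16 (SE 0.331). The coMO arrays lay below the uninjected ones, by changes of −0.72 (SE 0.254) and −0.58 (SE 0.331), neither of them called. The coMO values also took part in choosing the list, so a low coMO signal was favoured by that choice. The ERbeta2 MO values were thus above those of either control group, of which coMO was the lower. In the authors' deposited tables the ratio was 5.54 and 4.88 for ERbeta2 MO over coMO and 3.51 and 3.23 for ERbeta2 MO over uninjected embryos.

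When single arrays were left out, the change against coMO of the first igfbp1a probe set lay between 1.94 and 2.45, and that of the second between 1.25 and 2.24. The count of 2 called IGF axis probe sets became 0 without coMO replicate 1 and 0 without coMO replicate 2, where 1 and 0 probe sets of the whole table were called. The GAPDH 3′/5′ ratio was also highest on the ERbeta2 MO arrays, whereas the acta1 ratio was highest on coMO replicate 1. With the GAPDH ratio as a covariate the igfbp1a change on the first probe set was 1.70 against coMO and 0.76 against uninjected embryos. On the second it was 1.49 and 0.79. In that fit 0 probe sets were called. Because the GAPDH ratio differed between the groups, the fit cannot separate RNA quality from the group. An effect of RNA quality on these values was not tested.

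The duplicate gene igfbp1b was not higher in ERbeta2 MO embryos. Its signal was low, at 31.9 and 106 in ERbeta2 MO embryos, 84.7 and 114 in coMO embryos and 241 and 129 in uninjected embryos. The ERbeta2 MO and coMO values overlapped, and both groups lay below the uninjected arrays. The change was −0.47 (interval −1.39 to 0.444, adjusted p = 0.547) for ERbeta2 MO minus coMO, −1.16 (interval −2.07 to −0.238, adjusted p = 0.0762) for ERbeta2 MO minus uninjected, and −0.68 (adjusted p = 0.504) for coMO minus uninjected. The ERbeta2 MO replicates differed by 1.12 on the log2 scale here, the widest gap between replicates of that group among the 13 probe sets. Without ERbeta2 MO replicate 1 the change against coMO was 0.08, and without replicate 2 the change against uninjected embryos was −1.71. The authors' deposited tables gave ratios of 0.287 for ERbeta2 MO over uninjected and 0.5 for coMO over uninjected embryos.

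**Figure D3:**
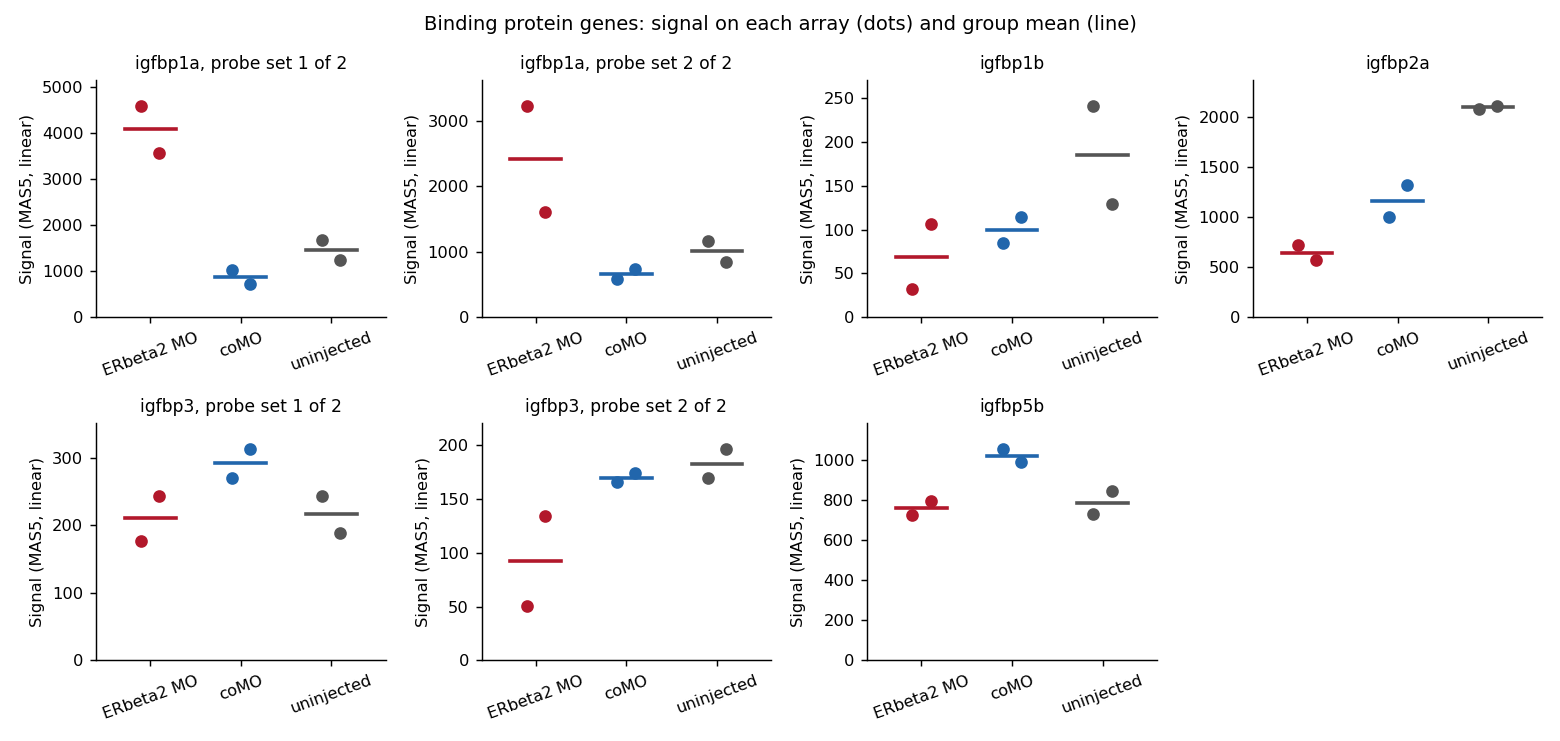
Signal (linear MAS5 intensity, vertical axis from 0) of the binding protein probe sets on each array (dots) with the mean of each group of 2 (lines). The igfbp1a dots of ERbeta2 MO, at 4581 and 3575 on the first probe set, lie above all other arrays, and the igfbp2a dots step up from ERbeta2 MO through coMO to the uninjected arrays at 2085 and 2112.

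The gene igfbp2a encodes a copy of binding protein 2, an IGF binding protein of blood that can hold back growth. Its signal was 724 and 569 in ERbeta2 MO embryos, 999 and 1328 in coMO embryos and 2085 and 2112 in uninjected embryos. No groups overlapped, and the uninjected pair lay close together. Against uninjected embryos igfbp2a fell by 1.66 in ERbeta2 MO (SE 0.219, adjusted p = 0.00489). The change of ERbeta2 MO minus coMO, −0.81 (SE 0.219, adjusted p = 0.0971), did not pass, nor did that of coMO minus uninjected, −0.85 (SE 0.219, adjusted p = 0.320). The authors' deposited tables gave 0.244 for ERbeta2 MO over uninjected and 0.43 for ERbeta2 MO over coMO.

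The call of igfbp2a against uninjected embryos was lost without uninjected replicate 1 (−1.67, adjusted p = 0.0601) and when the GAPDH ratio was a covariate (−1.51, adjusted p = 0.539). As the GAPDH ratio differed between the groups, the fit with it cannot separate RNA quality from the group. Without ERbeta2 MO replicate 1 the change of igfbp2a against coMO was −0.98, a value that rests on 1 ERbeta2 MO array.

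Whole embryos hold all organs, so fewer cells of a type and less RNA per cell cannot be told apart in these values. Liver markers were read beside igfbp2a, which was called lower against uninjected embryos and was not called against coMO. Of 24 tested markers, 7 were called lower, 0 higher and 17 neither in ERbeta2 MO against coMO. Against uninjected embryos 13 were called lower and 0 higher. Those called lower were 29.2% and 54.2% of the list, beside 1.63% and 10.2% of all tested probe sets. The median change of the liver list was −0.60 against coMO and −1.33 against uninjected embryos, and −0.72 for coMO minus uninjected. Their summed signal was 53365 and 38767 in ERbeta2 MO embryos, 57545 and 102444 in coMO embryos and 116783 and 119925 in uninjected embryos. Among them fabp10a, which encodes a fatty acid binding protein of liver, had 45.0 and 141 in ERbeta2 MO embryos, 766 and 1098 in coMO embryos and 2100 and 1233 in uninjected embryos. Its change was −3.83 (adjusted p = 0.00348) for ERbeta2 MO minus uninjected.

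Of 6 tested markers of yolk and hatching gland, 1 was called lower and 0 higher in ERbeta2 MO against coMO (mttp). That is 16.7% of the list, beside 1.63% of all tested probe sets called lower. Against uninjected embryos 4 were called lower (mttp, apoc2, apoa4b.1 and apoea) and 0 higher, 66.7% of the list called lower beside 10.2% of all. These are lipoprotein genes, so the calls do not speak for the hatching gland. The summed signal of the 6 was 17067 and 10210 in ERbeta2 MO embryos and 10044 and 23918 in coMO embryos, which overlapped. It was 37163 and 38212 in uninjected embryos. The apolipoprotein gene apoc2 had a change of −1.91 for ERbeta2 MO minus uninjected (adjusted p = 0.0196). No marker of either list was at 0, and the lowest mean signals over the arrays were 126 for hnf4a in the liver list and 188 for mttp in the yolk list. The part of these organs in the igfbp2a value was not tested.

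**Figure D4:**
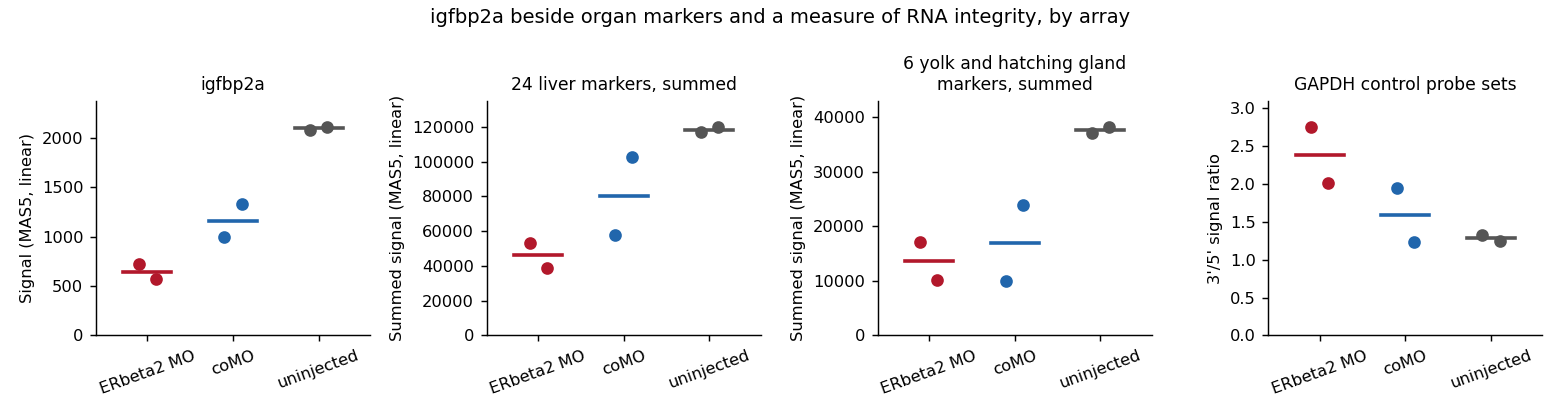
From left to right, the igfbp2a signal, the summed signal of 24 liver markers, the summed signal of 6 yolk and hatching gland markers (all linear MAS5 intensity) and the GAPDH 3′/5′ signal ratio on each array (dots), with group means (lines). The uninjected arrays are highest in the first 3 panels, and the 2 coMO arrays lie apart in both marker panels, at 57545 and 102444 for liver.

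For igfbp3, whose product carries most circulating IGF in mammals, the 2 probe sets differed. The first gave 177 and 244 in ERbeta2 MO embryos, 271 and 313 in coMO embryos and 244 and 189 in uninjected embryos. The second gave 50.9 and 134 in ERbeta2 MO embryos, 165 and 174 in coMO embryos and 169 and 196 in uninjected embryos. Both had ERbeta2 MO below coMO without overlap, but against uninjected embryos the second alone was without overlap.

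The igfbp3 changes for ERbeta2 MO minus coMO were −0.43 (adjusted p = 0.349) and −0.78 (adjusted p = 0.223), and for ERbeta2 MO minus uninjected −0.04 (adjusted p = 0.926) and −0.87 (adjusted p = 0.0917), none of which passed. For coMO minus uninjected they were 0.39 (adjusted p = 0.517) and −0.09 (adjusted p = 0.926). The correlation between the 2 probe sets over the 6 arrays was 0.544. Without ERbeta2 MO replicate 2 the change of the second probe set was −1.28 against coMO and −1.37 against uninjected embryos. These larger values rested on the ERbeta2 MO replicate 1 signal of 50.9.

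The last binding protein gene, igfbp5b, encodes a copy of binding protein 5, which also binds the extracellular matrix in mammals. It gave 727 and 795 in ERbeta2 MO embryos, 1054 and 988 in coMO embryos and 730 and 845 in uninjected embryos. The coMO arrays were the highest and did not overlap with either other group, while ERbeta2 MO and uninjected arrays overlapped. The changes were −0.41 (SE 0.191, adjusted p = 0.275) for ERbeta2 MO minus coMO, −0.04 (adjusted p = 0.893) for ERbeta2 MO minus uninjected and 0.36 (adjusted p = 0.462) for coMO minus uninjected, and none passed.

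Genes that act around the axis were taken from a list of 85 insulin, growth hormone and IGF signalling genes other than the 10 above, of which 36 had a probe set and 32 were tested. Against coMO limma called 0 of the 32 in either direction, and 6 had an unadjusted p under 0.05. Over all 11626 tested probe sets 2.29% were called and 2367 had such a p, so neither count sets the list apart. Against uninjected embryos 3 were called lower in ERbeta2 MO and 0 higher. These are 9.38% of the list, near the 10.2% called lower among all tested probe sets, so the count does not set the list apart. The median change was −0.09 against coMO and −0.20 against uninjected embryos.

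The 3 genes called lower are given as single genes. The adaptor gene irs2a, an insulin receptor substrate that links the receptor to PI3 kinase, had signals of 125 and 155 in ERbeta2 MO embryos, 288 and 309 in coMO embryos and 315 and 296 in uninjected embryos. It fell by 0.98 in ERbeta2 MO against uninjected embryos (SE 0.205, adjusted p = 0.0170), and its change of −0.95 against coMO was just short of the threshold (adjusted p = 0.0563). The kinase gene akt2l, with signals of 145 and 75.0 in ERbeta2 MO embryos, 151 and 285 in coMO embryos and 332 and 290 in uninjected embryos, fell by 1.32 (adjusted p = 0.0301). The growth hormone receptor gene ghrb fell by 1.21 (adjusted p = 0.0392), with 204 and 115 in ERbeta2 MO embryos, 205 and 215 in coMO embryos and 551 and 286 in uninjected embryos.

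Of the genes of the list with several probe sets, pik3r1, foxo3b and mapk3 each had another probe set, of lower mean signal, that was called lower in ERbeta2 MO against uninjected embryos. Their changes were −0.93 (adjusted p = 0.0186), −1.74 (adjusted p = 0.0355) and −1.03 (adjusted p = 0.0242), whereas the probe sets of highest mean changed by −0.27, 0.44 and −0.053 and did not pass. These 3 genes were named after their values were seen. The probe sets of a gene thus disagreed here, as they did for igfbp3.

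Proteins that bind IGF mRNAs were represented by igf2bp1 and igf2bp3. The igf2bp1 probe set had signals of 1764 and 1209 in ERbeta2 MO embryos, 826 and 724 in coMO embryos and 533 and 715 in uninjected embryos. It rose by 1.201 in ERbeta2 MO against uninjected embryos (SE 0.248, adjusted p = 0.0160), and its change of 0.89 against coMO did not pass (adjusted p = 0.104). The igf2bp3 changes of 0.14 and −0.09 did not pass in the same comparisons (adjusted p = 0.754 and 0.792).

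Because binding protein 1 genes respond to low oxygen and to stress, lists of such genes were read beside igfbp1a. Of 26 tested hypoxia-response genes, vegfaa was called higher and aldoca and eno1b lower in ERbeta2 MO against coMO. Against uninjected embryos 2 were called higher and 7 lower, with a list median of −0.31. The vascular growth factor gene vegfaa had 379 and 417 in ERbeta2 MO embryos, 176 and 136 in coMO embryos and 127 and 99.3 in uninjected embryos, with a change of 1.198 (adjusted p = 0.0420) against coMO and 1.57 (adjusted p = 0.00557) against uninjected embryos. Of the glycolysis genes in the list, eno1b, ldha and aldoca fell by 1.84, 1.44 and 2.09 against uninjected embryos (adjusted p = 0.00632, 0.00753 and 0.00898). The calls were 11.5% of the list against coMO and 34.6% against uninjected embryos, beside 2.29% and 18.5% of all tested probe sets. They went in both directions, and any part of low oxygen in the igfbp1a values was not tested.

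Of 26 tested genes of the integrated stress response, a pathway that lowers translation and induces transcription factors of the ATF family, 3 were called higher and 2 lower in ERbeta2 MO against coMO, and 5 higher and 3 lower against uninjected embryos. The ATF genes atf3, atf5b and atf4b were the 3 called higher against coMO, with changes of 2.18 (adjusted p = 0.0216), 1.82 (adjusted p = 0.0338) and 1.02 (adjusted p = 0.0368). The atf3 signal was 1546 and 783 in ERbeta2 MO embryos, 216 and 221 in coMO embryos and 260 and 346 in uninjected embryos. Its groups stood in the order of those of igfbp1a. Those of atf4b did not, with coMO (2847 and 2664) above uninjected embryos (2361 and 2577). The chaperone gene hsp90b1 and the amino acid transporter subunit gene slc3a2a were the 2 called lower, at −1.49 and −1.02 against coMO. Against uninjected embryos chac1 was also called lower, at −0.72 (adjusted p = 0.0293). The list median was 0.16 against coMO and 0.02 against uninjected embryos. Calls made up 19.2% of the list against coMO and 30.8% against uninjected embryos, beside 2.29% and 18.5% of all tested probe sets. Any link of these genes to igfbp1a was not tested.

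Of 10 tested cartilage and bone genes, 5 were called lower and 0 higher in ERbeta2 MO against coMO, and 3 lower and 0 higher against uninjected embryos. These are 50% and 30% of the list, beside 1.63% and 10.2% of all tested probe sets called lower. The cartilage matrix gene matn1 was at −2.79 (adjusted p = 0.0347) against coMO and −2.33 (adjusted p = 0.0149) against uninjected embryos. Of 18 tested skeletal muscle genes limma called 0 against coMO, beside 2.29% of all tested probe sets. An unadjusted p under 0.05 was found for 2 of the 18, beside 2367 of all 11626. Against uninjected embryos 2 were called higher and 1 lower, a share of 16.7% that is close to the 18.5% called over all. None of the tested genes of these lists was called between coMO and uninjected embryos, where limma called 0 probe sets in all.

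The signal patterns most like that of igfbp1a over the 6 arrays, by Pearson's r of log2(signal + 32) with its first probe set among 8689 probe sets of other genes with a single symbol, were those of eif1axb (0.997), mettl9 (0.994), mmgt1 (0.991), zgc:172053 (0.987) and drc3 (0.987). They were picked for that likeness, and the 6 arrays share 3 groups, so r is given as a description. The ranges over the arrays differed: 0.43 for eif1axb and 3.57 for zgc:172053, against 2.62 for igfbp1a. The zgc:172053 signal was 1120 and 831 in ERbeta2 MO embryos, 109 and 65.0 in coMO embryos and 193 and 208 in uninjected embryos.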

How the data were processed

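Per the labels, biotin-labelled RNA of whole zebrafish embryos was measured on Affymetrix arrays. The authors deposited 1 signal per probe set and array, a linear intensity from MAS5 (tool per the submitters' processing notes, which give no version), whose 2%-trimmed mean was 500.1 on every array. Fold ratios between groups come in further tables deposited by the authors, which from the values list ratios of at least 2 or at most 0.5. The direction of the ratios between coMO and uninjected embryos was taken from the match with the value table, that of the others from their labels. The log ratios of the tables correlated with the value table at r = 0.955 to 0.973. The table holds no detection calls, and precision is limited by how few arrays there are.

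Symbols came from the platform annotation, in which 10802 of 15617 probe sets had 1 symbol, 135 several and 4680 none. They were updated by gene number (10718 matched, 1 changed) through the GRCz12tu gene table. The array names no build, so no coordinates are given, and no sequences were used here. In the lists the probe set of highest mean stands for a gene.

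Signals were taken to log2(signal + 32) after 115 control probe sets and the 25% of lowest mean signal (under 72.8) were left out. limma 3.58.1 under R 4.3.3 fitted 3 groups with lmFit and eBayes with an intensity trend (3 residual and 5.28 prior degrees of freedom), two-sided, with Benjamini-Hochberg adjustment over 11626 probe sets. The spread behind each p-value joins that between these pools of embryos, over the 3 groups, with a trend taken from all tested probe sets. For igf2b the residual SD of its own arrays was 0.047, and the SE used was 0.186. With 2 against 2 arrays, an exact permutation test gives no p under 0.333. Data for ERbeta2 MO minus coMO with 11626 probe sets were also simulated, with 100 changed probe sets of each size. Of changes of size 2, 89% were recovered, and of size 1, 15%, with 3 calls where nothing changed. The noise was independent and normal, drawn from the fit's own prior spread, with no effect shared by a whole array. These rates are therefore those of the method under its own assumptions and need not hold for the real arrays.

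The members and lists were chosen with earlier results of these data known. Named genes are all members, up to 4 called genes of each other list per comparison by smallest adjusted p, and the 5 most like igfbp1a, of which the text gives a selection. Alternatives were other pseudocounts, filters, scalings, priors, the replicate number as a block and arrays left out.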

Additional observations from a re-analysis of the deposited data

How the results depend on the processing

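Of 693 values of single IGF axis probe sets under alternatives, 615 kept their direction and side of the threshold, 43 lost a call, 7 gained one and 28 changed sign, of which 0 were called. The 2 IGF axis probe sets called between ERbeta2 MO and coMO, both of igfbp1a and so a description, became 1 with a pseudocount of 1, no filter, quantile normalization, a constant prior or only the 4 arrays compared, and 0 when the GAPDH ratio was a covariate, and ranged from 0 to 3 with 1 array left out. The replicate block also gave 1. The 5 called between ERbeta2 MO and uninjected embryos became 3 with no filter, 2 with only the 4 arrays compared and 0 with the GAPDH ratio, and ranged from 0 to 6 with 1 array left out (0 without uninjected replicate 1, 1 without uninjected replicate 2). With a filter of 50% they were 3 of the 7 still tested, since both igf1rb probe sets were filtered out. The call of igfbp2a stayed, as did those of igfbp1a, which are among the 5. In all 3 comparisons the igfbp1a calls are a description. The 0 called between coMO and uninjected embryos became 2 (igfbp1a and igfbp2a) when ERbeta2 MO replicate 1 and coMO replicate 2 were both left out, a fit whose residual spread rests on the uninjected pair. With the replicate block, the igf1rb call on its first probe set was lost (adjusted p = 0.0590), and no other call of the 11 probe sets besides igfbp1a changed. Over all tested probe sets, deviations of same-numbered arrays correlated weakly (r = −0.084, 0.109 and −0.098), and the main fit did not pair them. A batch shared by same-numbered arrays that acts on part of the genes could be missed by these values. The cause of these changes was not tested. Over the whole table, calls between ERbeta2 MO and coMO numbered 266, against 160 with a pseudocount of 1, 129 with no filter, 142 with the replicate block, 60 with only the 4 arrays, 785 without both those arrays, and 0 to 1602 with 1 array left out. Between ERbeta2 MO and uninjected embryos they numbered 2156, against 4450 without both arrays, 0 with the GAPDH ratio and 35 to 3150 with 1 array left out, and between coMO and uninjected embryos 0, against 2147 without both arrays. Median centring shifted the median change by 0.07 against coMO and by 0.12 for ERbeta2 MO minus uninjected. Calls then split into 97 higher and 149 lower against coMO (76 and 190 without centring) and 1492 higher and 1020 lower against uninjected embryos (966 and 1190 without it). The values that changed sign, all uncalled, were these. For ERbeta2 MO minus coMO, igfbp1b was 0.13 and igf1 0.016 with the GAPDH ratio, and 0.25 and 0.062 without both arrays. With 1 array left out, igfbp1b ranged from −1.03 to 0.083, igf1 from −0.58 to 0.11 and igf1ra from −0.15 to 0.29 (0.43 without both arrays). For ERbeta2 MO minus uninjected, the first igfbp3 probe set was 0.079 with median centring, 0.087 with quantile normalization, 0.33 with the GAPDH ratio and 0.16 without both arrays, igfbp5b was 0.072 with median centring and 0.017 without both, and igf2a was 0.030 with median centring. With 1 array left out, that igfbp3 probe set ranged from −0.24 to 0.16, igfbp5b from −0.15 to 0.057, igf2a from −0.22 to 0.049 and igf1ra from −0.14 to 0.30. For coMO minus uninjected, the second igfbp3 probe set was 0.12 with the GAPDH ratio, igf1ra was −0.13 without both arrays, and igfbp3 was −0.089 on its second in place of its first probe set. With 1 array left out, the second igfbp3 probe set ranged from −0.18 to 0.00080, igf1ra from −0.13 to 0.14 and the first igf1rb probe set from −0.010 to 0.20.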
